A study of Mus musculus with 9 samples.

Results

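Activins, inhibins, bone morphogenetic proteins (BMPs) and growth and differentiation factors are secreted dimers of the transforming growth factor beta family. Inhibins oppose activins, and the signalling ligands bind a complex of type I and type II serine/threonine kinase receptors, which phosphorylates Smad proteins that then act on transcription in the nucleus. Follistatin, encoded by *Fst*, sequesters activin outside the cell and keeps it from its receptors. Activin A is a dimer of the subunit encoded by *Inhba*, a gene known to be induced by neuronal activity, and *Gdf10* encodes a BMP-like ligand also called BMP3b. The genes described here are *Fst*, *Gdf10*, the ligand genes *Inhba* and *Inhbb*, the receptor genes *Acvr1*, *Acvr1b*, *Bmpr1a*, *Acvr2a* and *Bmpr2*, and the follistatin-like gene *Fstl1*. They are 10 of the 15464 genes listed, and all 10 were among the 14239 genes tested, those reaching 10 normalized counts in 3 or more libraries. *Fst* and *Gdf10* were chosen by their values, because they were lower in both mutant genotypes than in wild-type mice, and the other 8 were selected on their place in the same pathway.

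RNA was sequenced from the striatum of 9 male C57BL/6J mice aged 10 to 12 weeks, with 3 wild-type (WT), 3 heterozygous (HET) and 3 knock-out (KO) *Shank3B* mice. *Shank3B* is an allele in which an internal run of *Shank3* exons is targeted, present from the germ line in every cell. Each library came from the striatum of 1 mouse, so that p-values measure the spread between these mice. The summed normalized counts were 31354274 to 32888468 in WT, 30830020 to 33790296 in HET and 30898890 to 33397415 in KO libraries, and these sums follow the normalization, so that the depth in reads is unknown. *Shank3* had 7209, 8812 and 6043 normalized counts in the WT libraries, 7575, 7098 and 8050 in the HET libraries and 10237, 10798 and 10578 in the KO libraries. The 3 KO libraries were above every WT and HET library, and a count summed over the whole gene does not single out the targeted exons and does not check the genotype labels. The study's authors report a rise of total *Shank3* transcripts in KO and put it down to non-targeted exons. Their qRT-PCR, with primers for non-targeted exons, also showed a rise. Markers of striatal medium spiny neurons were measured in every library, with *Pde10a* the most abundant at 19599 to 39151 normalized counts. *Slc17a7*, a marker of cortical glutamatergic neurons, was at 26609 to 43336, so that the bulk tissue also held RNA of such neurons. HET replicate 3 and KO replicate 3 stood apart from the other libraries on the first principal component, which held 33.6% of the variance.

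*Fst* had 118, 113 and 134 normalized counts in the WT libraries, 83.6, 89.8 and 102 in the HET libraries and 98.1, 77.2 and 72.1 in the KO libraries. The lowest WT library was above every mutant library, and the HET and KO ranges overlapped. The mean was 122 ± 10.9 in WT, 92.0 ± 9.60 in HET and 82.5 ± 13.8 in KO (SD, n = 3 mice each), which is 75.7% of the WT mean in HET and 67.9% in KO. *Gdf10* had 254, 252 and 238 normalized counts in WT, 154, 227 and 173 in HET and 203, 176 and 145 in KO. Again each WT library was above each mutant library, with the smallest gap between WT replicate 3 and HET replicate 2. The *Gdf10* mean was 248 ± 8.69 in WT, 185 ± 38.3 in HET and 174 ± 29.0 in KO (SD, n = 3 mice each). On the scale of log2(normalized count + 1), which understates differences of low genes, the log2 fold change (log2FC) of *Fst* against WT was −0.40 in HET and −0.56 in KO. That of *Gdf10* was −0.44 in HET and −0.52 in KO. Both comparisons share the 3 WT libraries, and as these differences chose both genes they are given with no test. In bulk tissue, fewer cells of a type and less RNA per cell cannot be told apart.

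How often genes in general separated in this way was counted over the whole table. Every HET library was below every WT library for 312 of 14239 genes (2.19%) and every KO library was below every WT library for 358 (2.51%). Both held for 53 genes (0.372%). *Fst* and *Gdf10* were the 2 members in each of these counts, and since these contrasts chose them nothing is read from it. At an adjusted p under 0.05 in limma, 0 genes (0%) were called in HET against WT, 0 (0%) in KO against WT and 0 (0%) in KO against HET. At an unadjusted p under 0.05 the same fits gave 158 genes for HET, of which 72 (0.506%) were lower, and 117 genes for KO, of which 62 (0.435%) were lower. As a share of the 14239 genes tested, both totals were under the 0.05 that evenly spread p-values would give. The cause was not tested. The members among the lower genes were again *Fst* and *Gdf10* in both. With DESeq2 and another correction of p-values, the study's authors report differentially expressed genes in HET and in KO, *Shank3* in KO among them. In limma *Shank3* in KO had a log2FC of 0.54 and an adjusted p of 0.999. A count of 0 calls in limma thus does not show that no gene differs.

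KO against HET was not the comparison that chose *Fst* and *Gdf10*, but the choice used the same HET and KO values, so it is described with no test. The KO mean of *Fst* was 89.7% of the HET mean, with a log2FC of −0.16, and 0.0064 without HET replicate 3 and KO replicate 3 together. For *Gdf10* the KO mean was 94.5% of the HET mean, with a log2FC of −0.08, which turned positive when HET replicate 2 (0.08), KO replicate 3 (0.05) or both replicate 3 libraries (0.01) were left out, and with library weights (0.01). In KO against HET, 80 of 14239 genes (0.562%) were lower at an unadjusted p under 0.05, and 0 of the 10 members were among them. The total at that threshold was 186 genes, and 318 in the fit with replicate blocks.

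**Figure D1:**
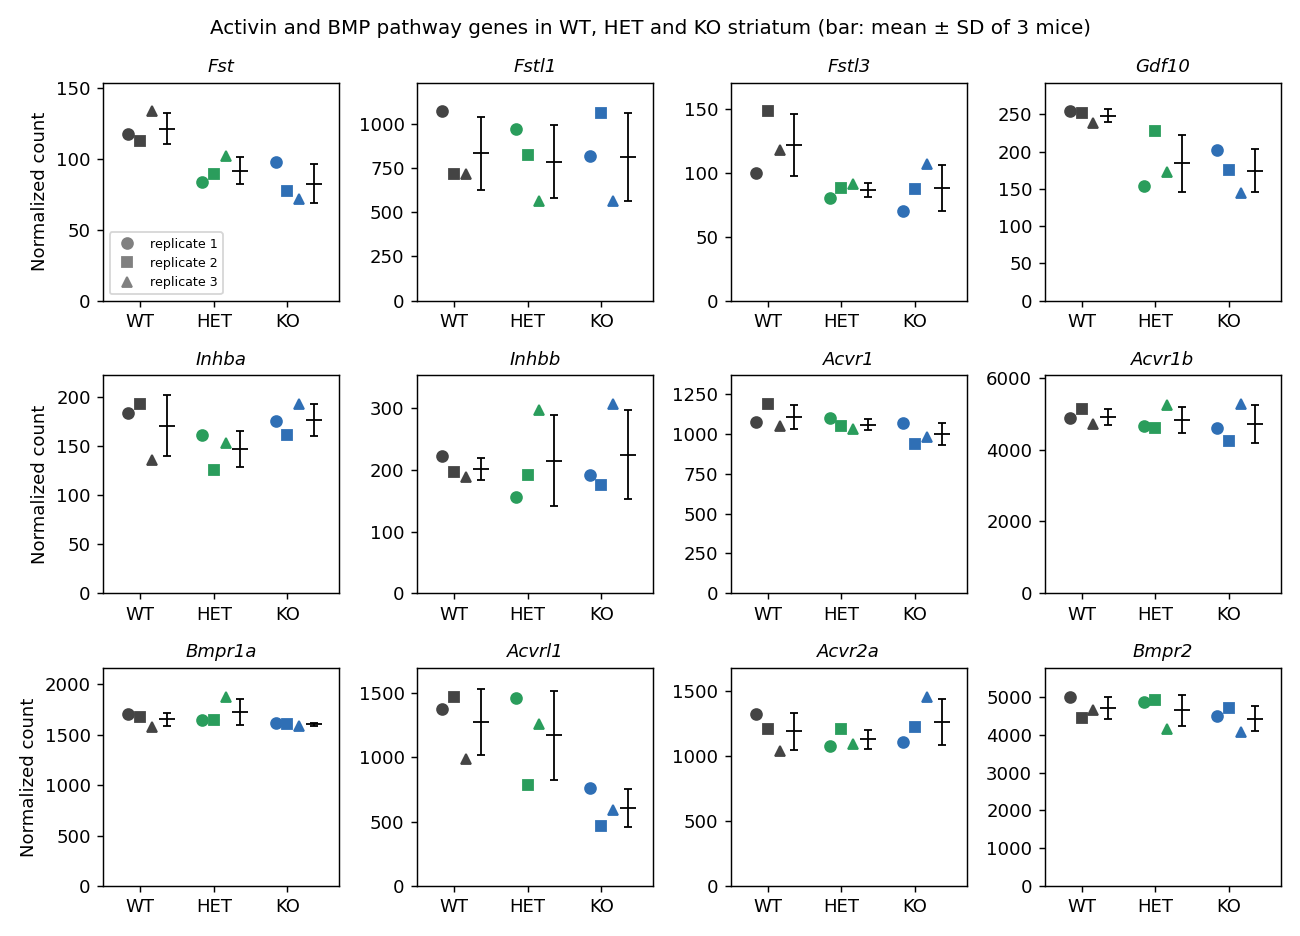
Normalized counts (vertical axes, each from 0) of the 10 members with *Fstl3* and *Acvrl1* in the WT, HET and KO libraries, where each point is 1 mouse, its shape the replicate number, and the bar beside it the mean ± SD of 3 mice. The WT points of *Fst* (113 to 134) and *Gdf10* (238 to 254) lie above the mutant points by the choice of these genes, and *Acvrl1* is lowest in the KO libraries (463 to 758).

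Among the activin ligand genes, *Inhba* and *Inhbb* had overlapping ranges in the 3 genotypes. *Inhba* had 184, 193 and 136 normalized counts in WT, 162, 126 and 154 in HET and 176, 161 and 193 in KO. WT replicate 3 was within the HET range, and the KO libraries lay within the WT range except for replicate 3, which was just above it. The log2FC of *Inhba* was −0.21 in HET (SE 0.18, exact permutation p = 0.3) and 0.06 in KO (SE 0.18, exact permutation p = 0.8). In KO against HET it was 0.27 (95% confidence interval −0.13 to 0.66, exact permutation p = 0.2), with KO above HET in each same-numbered pair and an adjusted p of 1 in limma with and without the replicate block. Against WT, the *Inhba* value in KO was −0.097 without WT replicate 3, in the opposite direction. In HET it was −0.099 without HET replicate 2. With 3 mice against 3, the smallest p of the exact test is 0.1. *Inhbb*, the other activin beta subunit, had 222, 196 and 188 normalized counts in WT, 156, 192 and 297 in HET and 192, 175 and 307 in KO. Its highest values were in HET replicate 3 and KO replicate 3, the libraries that stood apart, and the remaining mutant libraries lay within the WT range or below it. The log2FC of *Inhbb* was 0.04 in HET and 0.11 in KO (SE 0.26 in each, exact permutation p = 0.9 in each). Without HET replicate 3 it was −0.22 in HET, and without KO replicate 3 it was −0.13 in KO, in the opposite direction.

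Since follistatin acts on activin, the ratio of the *Fst* count to each ligand count was taken within libraries, as a description that the choice of *Fst* touches. The ratio of *Fst* to *Inhba* was 0.638, 0.586 and 0.986 in WT, 0.516, 0.712 and 0.667 in HET and 0.558, 0.479 and 0.373 in KO. The KO libraries were below the WT libraries, and HET overlapped both. The ratio of *Fst* to *Inhbb* was 0.531, 0.577 and 0.711 in WT, 0.537, 0.468 and 0.345 in HET and 0.511, 0.440 and 0.235 in KO. The lowest ratio to *Inhbb* was in KO replicate 3, where *Inhbb* was highest. These ratios are of counts and not of protein, and they were not corrected for gene length.

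Of the 19 genes in the list of activin, inhibin, nodal and other family ligands, 13 were tested. At an unadjusted p under 0.05, 1 was lower in HET and 1 in KO (*Gdf10* in both, by its choice) and 0 were higher, beside 0.506% and 0.435% lower over all tested genes. The median log2FC of the list was −0.04 in HET and 0.02 in KO, against −0.003 and 0.005 over all 14239 genes. Without WT replicate 2 the list median was 0.02 in HET, and without KO replicate 3 it was −0.04 in KO, in the opposite direction. This list includes *Gdf10*, chosen by these differences. *Inha*, the inhibin alpha subunit, was its most abundant gene, with 828 ± 57.6 normalized counts in WT, 821 ± 55.3 in HET and 898 ± 44.9 in KO (SD, n = 3 mice each). Of 14 BMP ligand genes, 6 were tested and 0 passed the unadjusted threshold. Their most abundant gene, *Bmp7*, had 288, 306 and 288 normalized counts in WT, 218, 323 and 476 in HET and 186, 286 and 437 in KO. As with *Inhbb*, its highest counts were in HET replicate 3 and KO replicate 3.

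Neuronal activity genes were summed beside *Inhba*, because it is itself activity-induced. Their 7 genes, of which *Egr1* was the most abundant, summed to 36250, 29792 and 36309 normalized counts in WT, 27235, 28506 and 42990 in HET and 31102, 42579 and 41023 in KO. The 3 highest sums were in HET replicate 3, KO replicate 2 and KO replicate 3, and the genotypes overlapped. The median log2FC of the 7 genes was −0.16 in HET and 0.15 in KO, with 0 genes past the unadjusted threshold of 0.05. For KO against HET it was 0.30 with all 7 positive, where that of *Inhba* was 0.27. The KO median was −0.06 without KO replicate 2, and the HET median 0.05 without HET replicate 1, each in the opposite direction. Their part in the *Inhba* values was not tested.

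The type I receptors among the members are *Acvr1*, a BMP receptor, *Acvr1b*, a receptor for activin, and *Bmpr1a*, a BMP receptor. *Acvr1* had 1077, 1189 and 1052 normalized counts in WT, 1098, 1049 and 1030 in HET and 1072, 935 and 984 in KO. Its log2FC was −0.06 in HET (95% confidence interval −0.27 to 0.15) and −0.15 in KO (95% confidence interval −0.36 to 0.06). In KO against HET it was −0.09, with KO below HET in each same-numbered pair. *Acvr1b* ranged from 4249 to 5274 over the 9 libraries, and its log2FC was −0.02 in HET (95% confidence interval −0.25 to 0.20) and −0.06 in KO (95% confidence interval −0.29 to 0.16). *Bmpr1a* ranged from 1582 to 1880, and its log2FC was 0.06 in HET (95% confidence interval −0.13 to 0.25) and −0.04 in KO (95% confidence interval −0.24 to 0.15). All 3 KO libraries of *Bmpr1a* were below all 3 HET libraries, with a log2FC of −0.10, a two-sided exact permutation p of 0.1 and an adjusted p of 1 in limma. Every KO library was below every HET library for 312 genes (2.19%) of those tested, with *Bmpr1a* the 1 member among them. With 1 library left out, the sign against WT turned for *Acvr1b* (0.011 in HET, 0.0075 in KO) and *Bmpr1a* (−0.0045 in HET). For these 3 receptors, HET and KO overlapped with WT and the exact permutation p was between 0.2 and 0.7. Their intervals were narrow beside those of *Inhbb* and *Fstl1*.

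The type II receptors *Acvr2a*, which binds activin, and *Bmpr2*, which binds BMPs, also overlapped between genotypes. *Acvr2a* had 1325, 1205 and 1041 normalized counts in WT, 1078, 1210 and 1091 in HET and 1106, 1222 and 1456 in KO. The highest count was in KO replicate 3 and the lowest in WT replicate 3, and the log2FC was −0.07 in HET (SE 0.13) and 0.08 in KO (SE 0.13). Without KO replicate 3 the KO value was −0.027, and without WT replicate 1 the HET value was 0.0060, each in the opposite direction. *Bmpr2* had 5017, 4451 and 4654 normalized counts in WT, 4860, 4921 and 4162 in HET and 4511, 4724 and 4068 in KO. Here HET replicate 3 and KO replicate 3 were the lowest libraries, and the log2FC was −0.02 in HET (SE 0.10) and −0.09 in KO (SE 0.10). Without HET replicate 3 the HET value was 0.057, in the opposite direction. Two-sided exact permutation tests gave p = 0.7 and p = 0.6 for *Acvr2a* and p = 0.8 and p = 0.5 for *Bmpr2*, in HET and KO. In KO against HET the log2FC was 0.16 for *Acvr2a*, with KO above HET in each same-numbered pair. It was −0.07 for *Bmpr2*, with KO below HET in each pair. The same-numbered pairs differed in direction for *Fst*, *Gdf10*, *Inhbb*, *Acvr1b* and *Fstl1*. The share of all genes whose pairs agree was not counted, so nothing is read from such agreement. The adjusted p in limma was 0.999 for each of the 8 members not chosen by their values, in HET and in KO.

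Of the 7 type I receptor genes, all 7 were tested, and *Acvrl1* was the 1 lower at an unadjusted p under 0.05 in KO, where 62 of all 14239 genes (0.435%) were. *Acvrl1* encodes a type I receptor known for its role in endothelial cells. It had 1371, 1471 and 984 normalized counts in WT, 1460, 785 and 1261 in HET and 758, 463 and 589 in KO. The highest KO library was below the lowest HET and the lowest WT library. The KO mean was 47.3% of the WT mean, with a log2FC of −1.09 (95% confidence interval −1.65 to −0.52), an adjusted p of 0.999 in limma and a two-sided exact permutation p of 0.1. It ranked 3 of 14239 genes by unadjusted p in KO against WT. Against HET the log2FC was −0.94 (95% confidence interval −1.50 to −0.37), with a rank of 5 and an exact permutation p of 0.1. In HET against WT it was −0.15 (95% confidence interval −0.72 to 0.41), with an exact permutation p of 0.6. As the adjusted threshold was not passed, this is a separation of 3 KO libraries from the WT and HET libraries and not a called difference.

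The endothelial and pericyte markers were set beside *Acvrl1*. Their 7 genes summed to 8111, 8606 and 7916 normalized counts in WT, 7813, 9338 and 10132 in HET and 8383, 8605 and 8647 in KO, and the genotypes overlapped. *Rgs5* was the most abundant, 0 of the 7 passed an unadjusted p under 0.05, and their median log2FC was 0.18 in HET with all 7 positive, 0.05 in KO, and −0.11 in KO against HET with all 7 negative (−0.01 without HET replicate 3). The HET median of these markers was 0.06 without HET replicate 3, and their KO median was −0.02 without WT replicate 1. Their part in the *Acvrl1* values was not tested. *Eng*, a co-receptor that acts with *Acvrl1* in endothelial cells, had 809, 1117 and 996 normalized counts in WT, 752, 1094 and 1720 in HET and 859, 970 and 1603 in KO. Its highest counts were in HET replicate 3 and KO replicate 3, both above the WT range. *Acvrl1* (chr15:101128522-101145336, plus strand, GRCm38) ends 28730 bases before *Acvr1b* (chr15:101174067-101213684, plus strand) and lies 11.57 Mb from the end of *Shank3*, on the same chromosome as the targeted allele. Of the 29 other tested genes within 1 Mb of *Acvrl1*, which were looked up after its values were seen, 2 were lower (*Slc11a2* at −0.53 and *Cela1* at −0.95) and 1 higher (*Csrnp2* at 0.26) in KO against WT at the unadjusted threshold of 0.05, and 0 in HET. In KO against HET 2 were lower (*Slc11a2* at −0.33 and *Cela1* at −0.86) and 1 higher (*Slc4a8* at 0.31). Over all 14239 genes, 62 were lower and 55 higher in KO against WT, and 80 and 106 in KO against HET. The log2FC of *Acvr1b* in KO was −0.06, and the part of the position in the *Acvrl1* values was not tested.

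**Figure D2:**
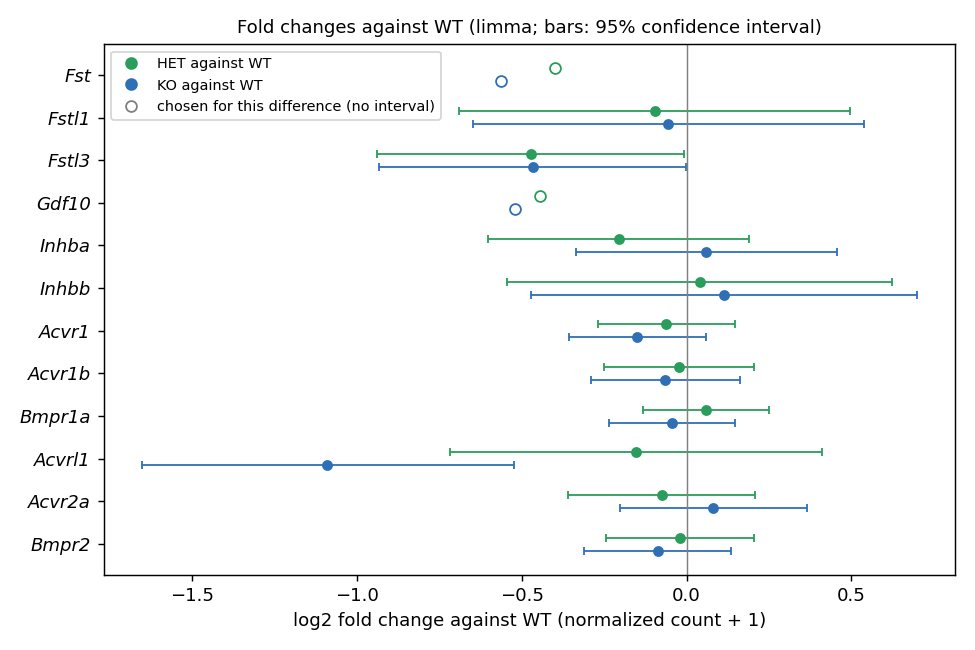
The log2 fold changes of the 10 members, *Fstl3* and *Acvrl1* in HET (green) and KO (blue) against WT (horizontal axis, log2 of normalized count + 1), with 95% confidence intervals from limma over 3 mice per genotype. Open points without an interval are *Fst* and *Gdf10*, which were chosen for these differences. The KO value of *Acvrl1* is −1.09, and the receptors *Acvr1*, *Acvr1b*, *Bmpr1a*, *Acvr2a* and *Bmpr2* lie between −0.15 and 0.08.

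Of the follistatin family, *Fstl1* encodes a secreted glycoprotein with a follistatin domain, and *Fstl3* a protein that binds activin as follistatin does. *Fstl1* had 1072, 714 and 716 normalized counts in WT, 971, 822 and 563 in HET and 819, 1060 and 562 in KO. The lowest counts were in HET replicate 3 and KO replicate 3, and the log2FC was −0.10 in HET and −0.06 in KO (SE 0.27 and exact permutation p = 0.9 in each). Without HET replicate 3 the log2FC in HET was 0.13, and without KO replicate 3 that in KO was 0.19, in the opposite direction. *Fstl3* had 100.2, 148 and 118 normalized counts in WT, 80.3, 88.4 and 91.2 in HET and 70.0, 87.5 and 107 in KO. The HET libraries were below the WT libraries, and the KO range overlapped the WT range. The log2FC was −0.47 in HET (SE 0.21, exact permutation p = 0.1) and −0.47 in KO (SE 0.21, exact permutation p = 0.2), with an adjusted p of 0.999 in limma in both. Like *Acvrl1*, *Fstl3* was outside the members and was named because its unadjusted p was under 0.05.

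The list of extracellular antagonists and follistatin genes had 22 genes, of which 20 were tested. In HET, 2 of them (*Fst* and *Fstl3*) were lower at an unadjusted p under 0.05, in KO the same 2, and 0 were higher. *Fst* was among them by its choice, and over all tested genes 0.506% were lower in HET and 0.435% in KO. The median log2FC was 0.02 in HET and 0.03 in KO, with 11 genes positive and 9 negative in each. Without HET replicate 3 the HET median was −0.07, and without KO replicate 3 the KO median was −0.08, each in the opposite direction. *Nbl1*, an antagonist of BMPs, was the most abundant, at 1022 ± 202 normalized counts in WT, 1039 ± 187 in HET and 1043 ± 209.6 in KO (SD, n = 3 mice each). The summed count of the list was 7920 ± 181 in WT, 8000 ± 424 in HET and 8170 ± 737 in KO (SD, n = 3 mice each), and the genotypes overlapped.

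Downstream of the receptors, all 8 Smad genes and all 13 of the commonly used target genes were tested. At an unadjusted p under 0.05, 0 were higher and 0 lower in HET and in KO. *Smad3*, which carries the activin signal, had 2530 ± 237 normalized counts in WT, 2319 ± 49.2 in HET and 2398 ± 253 in KO (SD, n = 3 mice each), with a log2FC of −0.12 in HET and −0.08 in KO. *Ski*, which encodes a repressor of Smad-dependent transcription, was the most abundant target, at 4852 to 5731. The BMP target genes *Id1*, *Id2*, *Id3* and *Id4*, which encode inhibitors of helix-loop-helix factors, had log2FC values in KO of −0.03, −0.02, −0.39 and −0.31. When KO replicate 3 was left out, *Id3* was −0.25 and *Id4* −0.03. *Id3* had 543, 598 and 620 normalized counts in WT, 420, 734 and 419 in HET and 441, 549 and 372 in KO. The KO range of *Id3* overlapped the WT range, with a two-sided exact permutation p of 0.2. These *Id* genes were named after their values were seen. The median log2FC of the target list was −0.01 in HET and −0.03 in KO.

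The remaining receptors and co-receptors completed the list. Of 5 type II receptor genes, 5 were tested with 0 at an unadjusted p under 0.05, and the summed count was 6634 ± 365 in WT, 6519 ± 456 in HET and 6418 ± 214 in KO (SD, n = 3 mice each). Of 7 co-receptor genes, 6 were tested with 0 at that threshold. Their most abundant gene, *Rgma*, a BMP co-receptor, had 1318 ± 146 normalized counts in WT, 1441 ± 483 in HET and 1404 ± 317 in KO (SD, n = 3 mice each). Over all 92 pathway genes, 87 were listed and 75 tested. In HET, 3 were lower at the unadjusted threshold, in KO 4, and 0 were higher in either, with *Fst* and *Gdf10* among the lower genes by their choice. Of the 65 tested genes outside the members, 1 was lower in HET (*Fstl3*) and 2 in KO (*Fstl3* and *Acvrl1*), with a median log2FC of 0.02 (−0.03 to 0.04 with 1 library left out) and −0.01 (−0.06 to 0.02), where 72 (0.506%) and 62 (0.435%) of all 14239 genes were lower.

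Levels were compared between genes as normalized counts per kilobase of annotated exons. The mean over the 9 libraries was 1091 for *Acvr1b*, 262 for *Bmpr1a*, 256 for *Bmpr2*, 218 for *Acvr1* and 209.7 for *Acvr2a*. It was 165 for *Fstl1*, 50.3 for *Inhbb*, 38.8 for *Gdf10*, 25.8 for *Inhba* and 21.5 for *Fst*. Among the 10 members, the receptor genes were thus at higher levels than the genes of ligands and of follistatin, and genes outside the members were not placed in this order. Between neighbours in this order, the ranges over the libraries did not overlap for *Acvr1b* and *Bmpr1a* and for *Fstl1* and *Inhbb*, and overlapped for all other pairs. In WT the level of *Fst* per kilobase was 26.5 ± 2.38 (SD, n = 3) and that of *Inhba* 26.8 ± 4.84 (SD, n = 3), in HET 20.0 ± 2.09 (SD, n = 3) and 23.1 ± 2.95 (SD, n = 3), and in KO 18.0 ± 3.00 (SD, n = 3) and 27.7 ± 2.53 (SD, n = 3), where the differences of *Fst* are those that chose it. With the longest transcript as the length, the level of *Fst* was 33.8 and lay above that of *Inhba*, so that the order of these 2 genes depends on the length used.

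For *Fst* and *Gdf10*, the tested genes whose log2 counts ran most alike over the 9 libraries were listed by Pearson r, a description with no p. The difference between genotypes that chose both genes is part of every r. For *Fst* they were *Oxgr1* (0.925), *AB124611* (0.880), *Pdia4* (0.852), *Ikzf1* (0.839) and *Lin54* (0.833). For *Gdf10* they were *AB124611* (0.933), *Oxgr1* (0.926), *Lsm3* (0.920), *Gorab* (0.911) and *Zc3h18* (0.904). *Oxgr1* and *AB124611* were in both lists, at low mean normalized counts of 18.2 and 7.42. *AB124611* reached 10 normalized counts in the 3 WT libraries only, so that it passed the filter through WT, and its r follows in part from the filter and from the choice of *Fst* and *Gdf10*. *Fst* and *Gdf10* had an r of 0.808 with each other, which was rank 13 for *Fst* and rank 41 for *Gdf10*. With *Fst*, r was −0.159 for *Inhba* and −0.10 for *Inhbb*. Among the receptor members and *Fstl1* it ran from −0.442 for *Acvr2a* to 0.567 for *Acvr1*, and it was 0.605 for *Acvrl1* and 0.431 for *Fstl3*. With *Gdf10*, r ran from −0.269 for *Inhbb* to 0.539 for *Acvr1* among the members other than *Fst*. It was 0.358 for *Acvrl1* and 0.431 for *Fstl3*.

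The genes lie on several chromosomes of GRCm38 and are protein-coding. *Fst* (ENSMUSG00000021765) is on the minus strand at chr13:114452290-114458951 and *Gdf10* (ENSMUSG00000021943) on the plus strand at chr14:33923587-33937983. *Bmpr1a* is also on chromosome 14, at chr14:34410734-34503341 on the minus strand, and *Inhba* also on chromosome 13, at chr13:16011851-16031621 on the plus strand. *Inhbb* (chr1:119415465-119422248, minus strand) shares chromosome 1 with *Bmpr2* (chr1:59763400-59879014, plus strand). *Acvr1* (chr2:58388644-58567157, minus strand) shares chromosome 2 with *Acvr2a* (chr2:48814109-48903269, plus strand). *Fstl1* is on the plus strand at chr16:37776873-37836514. *Fst*, *Inhba* and *Acvrl1* have an annotated antisense gene over part of their span, and *Acvr2a* and *Fstl3* a gene on the opposite strand (*Orc4* and *Prss57*). The log2FC of *Prss57* was −1.08 in HET and −0.86 in KO, in the direction of *Fstl3*, and its part in the *Fstl3* values was not tested. The kit marked strand, and whether the counting used it is not given in the sources used here, so that reads of such pairs may not be told apart.

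Promoter sequence from RefSeq (GRCm38.p6) was held for 9 of the 10 members. *Fst* and *Acvrl1* are named only. The 250 bases upstream of the transcription start were searched on both strands for CAGAC, the Smad-binding sequence whose other strand reads GTCTG, and for GGCGCC, a GC-rich Smad-binding sequence that reads the same on both strands. Of 32851 promoters of this length, 42.2% held CAGAC and 9.6% held GGCGCC. Among the 9 promoters of members, CAGAC was in 2 (*Gdf10* and *Acvr2a*) and GGCGCC in 2 (*Bmpr1a* and *Bmpr2*). The sequences of *Gdf10* (chr14:33923337-33923586, plus strand), which was lower in both mutant genotypes by its choice, and of *Fstl3* (chr10:79777024-79777273, plus strand), the gene outside the members with an unadjusted p under 0.05 in both, are shown 5′ to 3′, and capitals mark CAGAC on either strand. The last bases of the *Fstl3* window reach the start of its GENCODE annotation. Windows of *Bmpr1a* (chr14:34502547-34502796) and *Bmpr2* (chr1:59764029-59764278) lie wholly inside their GENCODE genes, so their GGCGCC matches are upstream of the RefSeq start only. That of *Acvr1* also lies inside its gene, and those of *Acvr1b* and *Fstl1* reach into theirs.
Gdf10: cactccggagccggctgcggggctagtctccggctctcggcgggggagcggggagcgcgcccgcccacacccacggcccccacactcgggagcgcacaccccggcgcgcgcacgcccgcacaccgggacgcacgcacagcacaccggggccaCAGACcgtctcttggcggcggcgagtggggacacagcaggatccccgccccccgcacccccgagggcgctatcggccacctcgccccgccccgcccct
Fstl3: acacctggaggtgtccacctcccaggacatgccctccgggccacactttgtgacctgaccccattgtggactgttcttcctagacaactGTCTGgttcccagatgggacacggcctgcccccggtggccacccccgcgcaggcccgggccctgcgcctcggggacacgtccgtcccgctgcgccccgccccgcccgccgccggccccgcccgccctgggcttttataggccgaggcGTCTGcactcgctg
*Gdf10* held 1 match and *Fstl3* 2. A match is a description of these letters, and nothing was measured at these promoters.

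The cell type markers were summed in each library to show which cell types each piece of tissue held. Of 80 genes in the lists of cell type markers and neuronal activity genes, 79 were tested and 0 passed an unadjusted p under 0.05 in any comparison. The 9 medium spiny neuron markers summed to 132544, 149126 and 74906 normalized counts in WT, 132488, 103208 and 112799 in HET and 110720, 95290 and 65471 in KO. WT replicate 3 and KO replicate 3 were the lowest, the genotypes overlapped, and the median log2FC was 0.02 in HET, −0.36 in KO with all 9 genes negative and −0.38 in KO against HET, again with all 9 negative. The 6 oligodendrocyte markers, with *Mbp* the most abundant, summed to 164137, 154380 and 253632 in WT, 216710, 245573 and 236047 in HET and 215562, 237527 and 132901 in KO. Their median log2FC was 0.33 in HET with all 6 positive, 0.03 in KO and −0.31 in KO against HET with all 6 negative. With 1 library left out, the HET median ranged from 0.19 to 0.54 and the KO median from −0.11 to 0.26. Without KO replicate 3 the KO against HET median was −0.16 for the medium spiny neuron and −0.07 for the oligodendrocyte markers. Against WT, the medium spiny neuron median in KO was −0.13 without KO replicate 3 and −0.66 without WT replicate 3. In HET it was −0.28 without WT replicate 3, in the opposite direction. The 4 oligodendrocyte precursor markers, with *Pdgfra* the most abundant, summed to 3588, 3579 and 3601 in WT, 3371, 3856 and 3889 in HET and 3623, 3936 and 3646 in KO. Every KO library was above every WT library, by a small margin between KO replicate 1 (3623) and WT replicate 3 (3601). The 8 cortical glutamatergic markers summed to 43824, 46840 and 56904 in WT, 38823, 53899 and 47858 in HET and 43498, 46783 and 61471 in KO. The 8 vascular and leptomeningeal fibroblast markers had a median log2FC of −0.27 in KO, with all 8 negative (0.27 without KO replicate 1), and their sum ranged from 925 to 4384 with *Igf2* the most abundant. The 8 interneuron markers had a median log2FC of −0.25 in KO with 6 negative (0.09 without WT replicate 3). For *Sst* among them, every KO library was above every WT library. The share of all genes that separated upward in this way was not counted, so nothing is read from it. The most abundant markers of the interneuron, microglia, choroid plexus and ependymal lists were *Sst* (3987 to 5259), *Csf1r* (3607 to 4308), *Clic6* (60.3 to 207) and *Foxj1* (133 to 309). *Ttr*, another choroid plexus marker, was listed at 0 in WT replicate 1 and KO replicate 3. Astrocyte markers, with *Slc1a2* the most abundant, summed to 143566 ± 12621 in WT, 148930 ± 11266 in HET and 144822 ± 10560 in KO (SD, n = 3 mice each). KO replicate 3 had the lowest medium spiny neuron sum and the lowest *Fst* (72.1) and *Gdf10* (145) of the 9 libraries, while WT replicate 3, with the lowest sum of WT, had the highest *Fst* (134) and the lowest *Gdf10* of WT (238). The part of these markers in the *Fst* and *Gdf10* values was not tested.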

How the data were processed

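RNA-seq of the striatum of 9 mice (3 WT, 3 HET, 3 KO) was used, with genotypes and replicate numbers from the labels. The deposited signal is a normalized count per gene, for which the authors ran Salmon 0.9.1 on GRCm38 with GC correction, tximport in R 3.6.0 and size factors of DESeq2 1.19.11. Whole reads were not recovered from these values, so no counting interval is given. A count of reads would have been needed for a count test, and the test for normalized values was used.

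Values were analysed as log2(normalized count + 1). A filter kept the 14239 of 15464 genes that reached 10 in 3 or more libraries. They were fitted with limma 3.58.1 (R 4.3.3, trend in the variance prior) over all 9 libraries with no covariate, and p-values were adjusted by Benjamini-Hochberg at 0.05. Single genes had exact two-sided permutation tests. Symbols were found for 15457 genes, gene lengths and positions were taken from GENCODE (GRCm38), and promoters from RefSeq. Scripts ran in Python 3.11.15 with scipy 1.17.1 and matplotlib 3.10.9. The fit was tested on simulated data.

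The members and lists were chosen with earlier results of these data known. Genes named were the members, *Shank3*, list genes at an unadjusted p under 0.05 in HET or KO against WT, the most abundant gene of each list, markers listed at 0, and 5 genes with the highest r to *Fst* and to *Gdf10*. *Eng*, the *Id* genes and genes near *Acvrl1* or opposite *Fstl3* were named after their values were seen. Same-numbered HET and KO libraries correlated in their deviations from the genotype means at 0.515, 0.281 and 0.506, and differently numbered ones at −0.489 to 0.142. The numbers were therefore taken as pairs of HET and KO, although HET and WT replicate 1 correlated at 0.319. Whether they stand for real pairs was not tested. The authors call the mice littermates and speak of sets of RNA samples. Whether a number stands for a litter or a set is not given in the sources used here. Alternatives were other filters, pseudocounts, scaling, variance priors, library weights, replicate blocks, fits with 2 genotypes, each library left out and another gene length.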

Additional observations from a re-analysis of the deposited data

How the results depend on the processing

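The count of genes past the adjusted threshold was 0 in all 3 comparisons under every alternative run with limma. The count at an unadjusted p under 0.05 moved more. For HET against WT (158) it was 365 with the replicate block, 275 without HET and KO replicate 3 together, and 289, 394 and 268 without HET replicate 1, HET replicate 2 and WT replicate 3. For KO against WT (117) it was 310 with the replicate block, 395 with library weights, 219 without HET and KO replicate 3 together, 176 with no trend in the prior, 76 with a minimum of 50, and 292 and 72 without WT replicate 3 and WT replicate 2. For KO against HET (186) it was 318 with the replicate block and 303 and 288 without HET replicate 2 and HET replicate 3. The lower genes among these ranged from 53 (minimum of 50) to 232 (without HET replicate 2) for HET against WT, where the main fit gave 72, from 36 (without KO replicate 3 or WT replicate 2) to 189 (without WT replicate 3) for KO against WT, where it gave 62, and from 55 (minimum of 50) to 141 (replicate block) for KO against HET, where it gave 80. The replicate block changed no call. Same-numbered WT and KO libraries correlated at 0.243, −0.221 and 0.024, and WT and HET at 0.319, −0.014 and 0.0054, so that those numbers were not taken as pairs.

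Of 29 log2FC values followed over 20 alternatives each, 15 kept their sign in all and 14 changed sign in at least 1. Variance priors, the replicate block and fits with 2 genotypes leave a log2FC as it is. For *Fst* and *Gdf10* against WT, *Fstl3* in HET and *Acvrl1* and *Shank3* in KO, whose libraries did not overlap, leaving out a library cannot turn the sign, so nothing is read from it. Over the fits without 1 library, the log2FC of HET against WT ranged from −0.48 to −0.33 for *Fst*, −0.60 to −0.32 for *Gdf10*, −0.36 to −0.099 for *Inhba*, −0.22 to 0.24 for *Inhbb*, −0.096 to −0.0081 for *Acvr1*, −0.17 to 0.0060 for *Acvr2a*, −0.085 to 0.011 for *Acvr1b*, −0.0045 to 0.090 for *Bmpr1a*, −0.064 to 0.057 for *Bmpr2*, −0.27 to 0.13 for *Fstl1*, −0.34 to 0.11 for *Acvrl1* and −0.60 to −0.32 for *Fstl3*. Over the fits without 1 library, the log2FC of KO against WT ranged from −0.69 to −0.47 for *Fst*, −0.63 to −0.39 for *Gdf10*, −0.097 to 0.15 for *Inhba*, −0.13 to 0.27 for *Inhbb*, −0.20 to −0.096 for *Acvr1*, −0.027 to 0.17 for *Acvr2a*, −0.15 to 0.0075 for *Acvr1b*, −0.077 to −0.022 for *Bmpr1a*, −0.13 to −0.026 for *Bmpr2*, −0.27 to 0.19 for *Fstl1*, −1.27 to −0.91 for *Acvrl1*, −0.61 to −0.31 for *Fstl3* and 0.40 to 0.67 for *Shank3*. Over the fits without 1 library, the log2FC of KO against HET ranged from −0.29 to −0.073 for *Fst*, −0.20 to 0.085 for *Gdf10*, 0.16 to 0.34 for *Inhba* and −1.20 to −0.75 for *Acvrl1*. With library weights from limma, the following values changed sign or, for *Gdf10*, moved by more than the SD of WT. In KO against WT it was −0.44 for *Gdf10*, −0.033 for *Inhba*, −0.063 for *Inhbb*, −0.0040 for *Acvr2a* and 0.15 for *Fstl1*. In HET against WT it was −0.14 for *Inhbb*, 0.042 for *Bmpr2* and 0.085 for *Fstl1*. In KO against HET it was 0.012 for *Gdf10*. Others kept their sign at another size, with −0.049 for *Fst* in KO against HET, −0.029 for *Bmpr2* and −0.14 for *Acvr1b* in KO against WT and 0.012 for *Bmpr1a* and −0.076 for *Acvr1b* in HET against WT. Without HET and KO replicate 3 together, the following changed in the same sense. In KO against WT it was −0.39 for *Gdf10*, −0.0061 for *Inhba*, −0.13 for *Inhbb*, −0.027 for *Acvr2a* and 0.19 for *Fstl1*. In HET against WT it was −0.22 for *Inhbb*, −0.0045 for *Bmpr1a*, 0.057 for *Bmpr2* and 0.13 for *Fstl1*. In KO against HET it was 0.0064 for *Fst* and 0.014 for *Gdf10*. The cause was not tested. With the longest transcript as the length, the level per kilobase was 33.8 for *Fst*, 320.1 for *Acvr1*, 279 for *Bmpr1a*, 356 for *Bmpr2* and 214 for *Fstl1*.

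With 3 mice per genotype, an exact test cannot go below 0.1, and the depth in reads is unknown. The intervals of *Inhba* in HET (−0.60 to 0.19) and of *Inhbb* and *Fstl1* in both cover differences as large as that of *Fst* in HET.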
